A study of Mus musculus with 1279 samples.

Results

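Pericytes of the mouse heart were compared between cells collected through a Pdgfrb reporter and cells collected with antibodies. The cells were those that the labels place in heart cluster 8, among 1279 heart cells in all: those of the strain PdgfrbGFP, which made up 32.7% of the 364 cells of 1 plate, and 33 cells of the strain C57BL6, all from 1 other plate. Cluster 8 cells of 2 further reporter strains were used for comparison, 29 from the Cspg4dsRED plate, sorted by red fluorescence from Cspg4, and 15 from the Acta2GFP plate, sorted by green fluorescence from Acta2. The choice of cells used the strain, plate and cluster labels and no expression value of this comparison, although the clusters themselves were built from the same counts. PdgfrbGFP mice carry a bacterial artificial chromosome transgene, Tg(Pdgfrb-eGFP), in which Pdgfrb regulatory sequence drives a green fluorescent protein, and green cells were collected. C57BL6 mice carry no reporter, and their cells were stained with antibodies against PDGFRα or PDGFRβ. The labels do not say which antibody was used for which plate. All mice were males of 10 to 20 weeks, all reporter strains had been backcrossed to C57Bl6/J, and cells with the endothelial surface protein CD31 were excluded. Hearts were dissociated enzymatically by 1 procedure, to which elastase was added for Acta2GFP mice only. Strain, transgene, sort, plate and animal coincide, so their contributions cannot be told apart. The labels name no animal, each side is 1 sample, and no test between the sides was possible. All intervals are 95% intervals of counting error alone, and since the reads carry no molecular identifiers, they do not each stand for 1 molecule.

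Pericytes are mural cells that share the basement membrane of capillaries with the endothelium. Their recruitment depends on endothelial PDGF-B acting on the receptor PDGFRβ on the pericyte. In the heart they are recognised by Rgs5, an inhibitor of G protein signalling, by the ATP-sensitive potassium channel of Kcnj8 and Abcc9, and by low levels of the contractile proteins that mark arterial smooth muscle.

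Cluster 8 made up 32.7% of the PdgfrbGFP plate (exact binomial interval 27.9 to 37.8%) and 33 of 329 cells of the C57BL6 plate (10.0%, 7.01 to 13.8%). A second C57BL6 plate held no cluster 8 cell among 251, for which the exact binomial interval ends at 1.46% and a floor of 3 counts at 1.2%. These shares follow from what the sorts collected and are not frequencies in tissue.

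The 2 sides differed in depth and, also at equal depth, in the number of genes seen per cell. Without spike-in reads, a PdgfrbGFP cell had between 46268 and 361756 counts, with a median of 143791, and a C57BL6 cell between 92692 and 409482, with a median of 211912. A median of 2782 genes was detected in PdgfrbGFP and 3538 in C57BL6. Thinned to 50000 counts per cell, a depth that 1 PdgfrbGFP cell did not reach, the medians were 1714 and 2254. The 100 most abundant genes of a cell took a median of 37.8% of its counts in PdgfrbGFP and 25.4% in C57BL6. Spike-in RNA took a median of 4.77% and 3.08% of counts. The same gap was present in fibroblasts of clusters 2, 4 and 5: thinned cells had a median of 2112 genes on the PdgfrbGFP plate and 3019 on the C57BL6 plate, but 2034 on the second C57BL6 plate. In these fibroblasts the C57BL6 plate that holds the pericytes was the highest of the 3. Among cluster 8 cells at the same depth the medians were 2461 in Cspg4dsRED and 3240 in Acta2GFP, so PdgfrbGFP was the lowest of the 4 plates and C57BL6 the next.

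**Figure D1:**
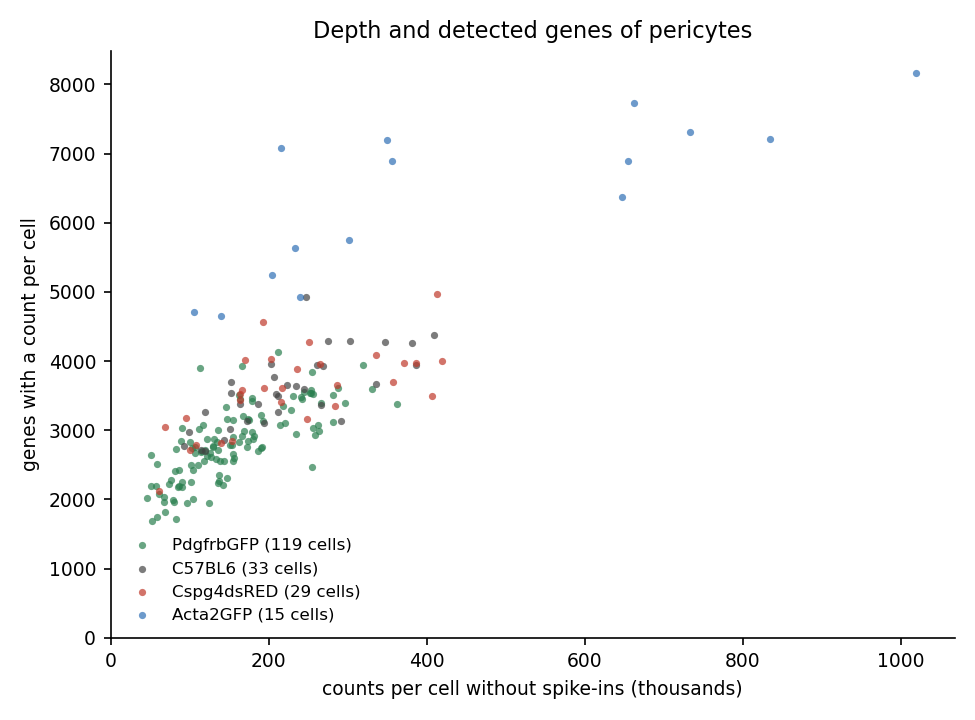
Genes with at least 1 count (y axis) against counts per cell in units of 1000, spike-ins left out (x axis) for cluster 8 cells of 4 strains, 1 point per cell. PdgfrbGFP cells have a median of 2782 genes and lie below most C57BL6 cells of similar depth, and the 15 Acta2GFP cells lie highest with a median of 6896.

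The share of cells that showed a gene differed between the sides even where the summed level was similar. Among 322 genes with a mean of 300 to 1000 CPM, the gene's counts scaled to a fixed library total, and log2 ratios within 0.5, the median share of thinned cells with at least 10 counts was 28.8% in PdgfrbGFP and 54.5% in C57BL6. Among 59 such genes at 1000 to 3000 CPM it was 69.5% and 90.9%. A lower share of positive cells in PdgfrbGFP is thus the background of this comparison, and summed levels are given first in what follows.

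Pericyte identity genes were at similar levels after both sorts. All 16 genes of the pericyte list passed the filter of a mean of 10 CPM, all 16 lay within 2-fold, and none was 4-fold apart. Of all genes 56.9% lay within 2-fold, but 84.3% of those with a mean of 100 CPM or more and 97.6% of those with 1000 CPM or more, so the count is near that of other abundant genes. The median log2 ratio of the list, PdgfrbGFP over C57BL6, was 0.27, beside -0.10 over all 9078 genes past the filter. The markers of the labelled cell type were present on both plates. Summed over the list, single cells held 21830 to 69290 CPM in PdgfrbGFP and 21210 to 62100 CPM in C57BL6, and fibroblasts of these plates held 1048 and 878 CPM.

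Rgs5 ran from 815 to 25970 CPM per cell with a median of 9661 in PdgfrbGFP, and from 2913 to 21140 with a median of 8202 in C57BL6. Its summed level was 9557 CPM (Poisson interval 9512 to 9601) against 7978 CPM (7913 to 8043). The cells of the 2 plates overlapped over nearly the whole range, and the ratio was 1.2-fold. Kcnj8, the pore-forming subunit of the potassium channel, was at 6605 and 5132 CPM, and Abcc9, its regulatory subunit, at 2354 and 2401 CPM. Vtn, which encodes the matrix protein vitronectin, was at 5080 and 4276 CPM. A few PdgfrbGFP cells held little of these genes: the lowest cell had 73.5 CPM of Kcnj8 and 37.9 CPM of Vtn, against 892 and 1690 CPM in C57BL6. The cell lowest in Kcnj8 held 6630 CPM of the smooth muscle actin gene Acta2, and the cell lowest in Vtn held 11680 CPM, the highest Acta2 level of the plate. In C57BL6, too, the cell lowest in Kcnj8 was the one highest in Acta2, at 1992 CPM. Among PdgfrbGFP cells the second and the third lowest in Kcnj8 held 4491 and 11200 CPM of Acta2, and the second and the third lowest in Vtn held 36 and 0 CPM. Cspg4, the NG2 proteoglycan, was at 641 and 589 CPM, although its median cell held 13.1 CPM in PdgfrbGFP and 595 CPM in C57BL6. Notch3, a receptor that mural cells use to read endothelial Notch ligands, was at 588 and 709 CPM. The list's extremes were Mcam, a cell adhesion molecule, with 681 and 407 CPM (log2 ratio 0.74), and Ednra, the endothelin A receptor, with 523 and 878 CPM (log2 ratio -0.75).

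**Figure D2:**
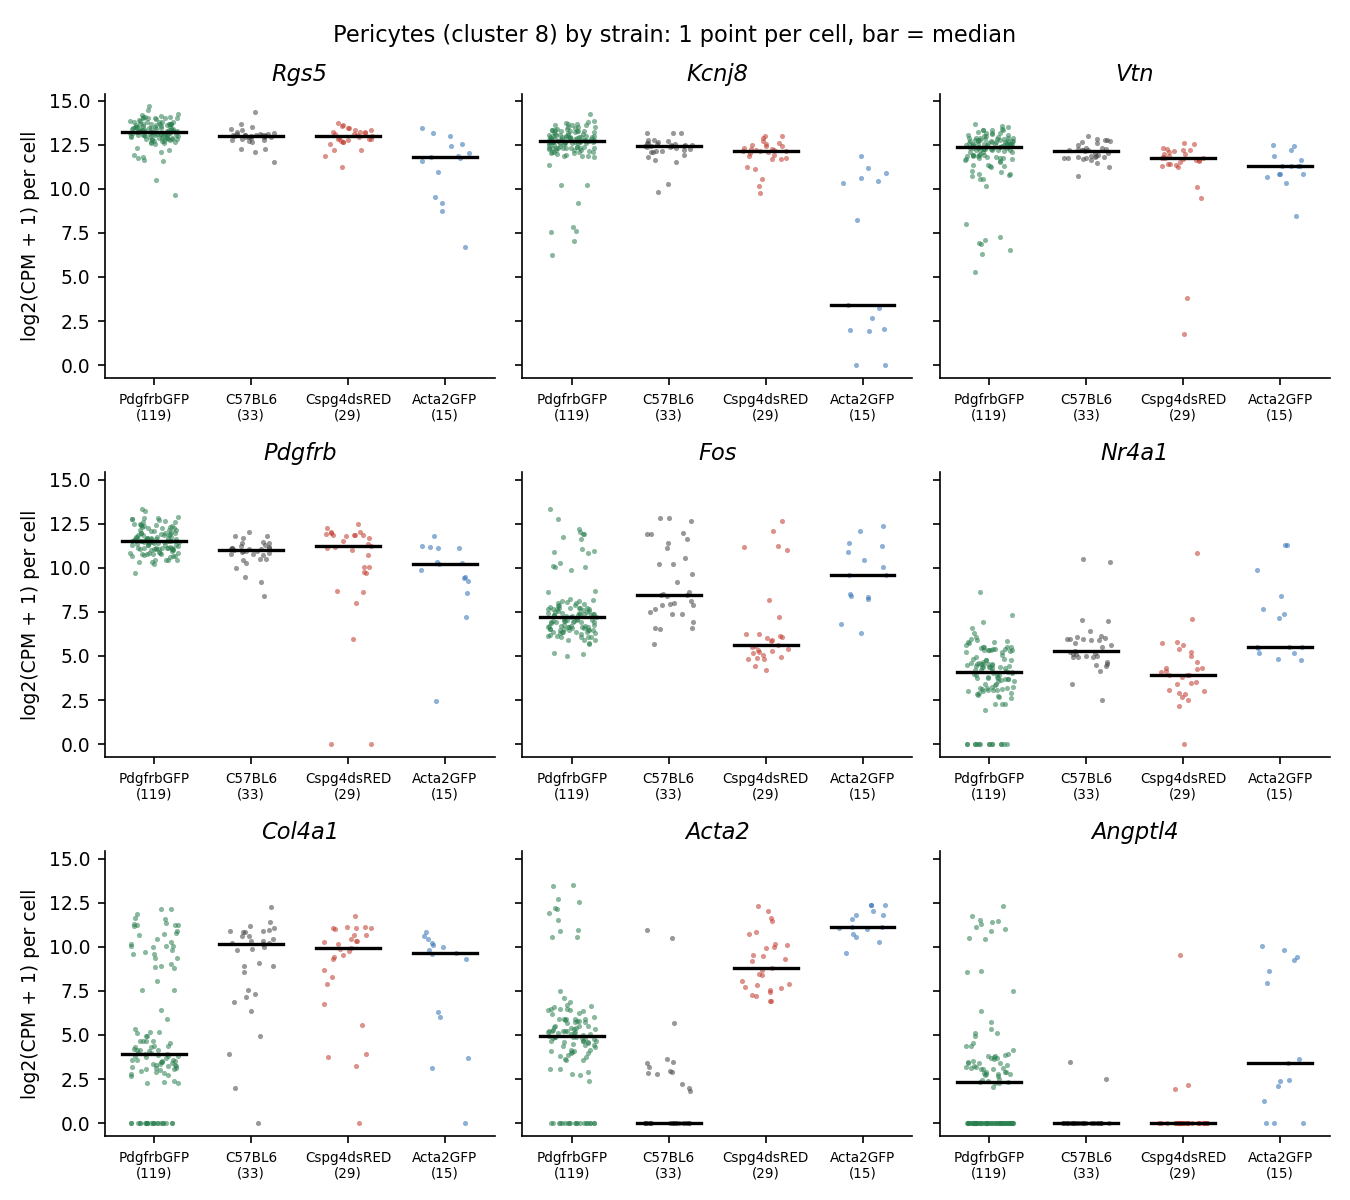
Level per cell, as log2(CPM + 1) on the y axis, of 9 genes in cluster 8 cells of 4 strains (x axis, number of cells in brackets), with 1 point per cell and a bar at the median. Rgs5, Kcnj8, Vtn and Pdgfrb overlap between PdgfrbGFP and C57BL6, whereas the median PdgfrbGFP cell is lower for Fos, Nr4a1 and Col4a1, and in these 2 strains high Acta2 or Angptl4 is held by few cells, whereas 14 of 15 Acta2GFP cells hold 1000 CPM or more of Acta2.

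Pdgfrb, the gene behind the reporter and the target of 1 antibody, was the marker most directly tied to the gates. PdgfrbGFP cells ran from 828 to 10310 CPM with a median of 2923, and C57BL6 cells from 334 to 4218 CPM with a median of 2019. The ranges overlapped, and 99.2% of PdgfrbGFP cells (95.4 to 100%) and 30 of 33 C57BL6 cells (90.9%, 75.7 to 98.1%) held 1000 CPM or more. The summed level was 3281 CPM (3255 to 3307) against 1988 CPM (1956 to 2021), 1.65-fold higher in PdgfrbGFP. Fibroblasts of the same plates differed the same way: Pdgfrb was at 409.3, 352.8 and 310.3 CPM in clusters 2, 4 and 5 of the PdgfrbGFP plate and at 235.6, 165.5 and 158.6 CPM in those of the C57BL6 plate, and the second C57BL6 plate had 107.6, 96.28 and 130.2 CPM. Pericytes of the Cspg4dsRED plate, sorted by another reporter, had 2401 CPM and those of Acta2GFP 1487 CPM. The green fluorescent protein is not a feature of the table, and whether transgene transcripts add to the counts of Pdgfrb was not tested.

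A bacterial artificial chromosome can carry neighbours of its gene, so genes within 250000 bases of Pdgfrb were listed. Except Pdgfrb, only 2 of them, Tcof1 and Ppargc1b, passed the filter in pericytes, and both were lower in PdgfrbGFP. Tcof1, which encodes a nucleolar protein, was at 18.7 and 43.1 CPM. Ppargc1b, a coactivator of mitochondrial genes, was at 0.108 CPM in PdgfrbGFP, 108.3 in C57BL6, 83.1 in Cspg4dsRED and 56.8 in Acta2GFP. Its counts were in too few C57BL6 cells to be called, with at least 10 counts in 21.2% of them. The adjacent receptor gene Csf1r was at 10.6 CPM in PdgfrbGFP and 1.22 in C57BL6, with 10 or more counts in 3.36% of PdgfrbGFP cells, and was at 0.54 and 11.6 CPM in the fibroblasts of the same plates. Hmgxb3, whose end overlaps that of Csf1r so that their reads may not be separable, was at 17.9 and 1.22 CPM in pericytes and at 3.04 and 14.9 CPM in fibroblasts. Pericytes of the strain Cspg4dsRED held 33.6 CPM of Csf1r and 37.5 CPM of Hmgxb3. Camk2a, Slc26a2 and Pde6a were higher on the PdgfrbGFP plate than on the C57BL6 plate in both cell types: in pericytes they had 14.7, 7.12 and 10.4 CPM against 0, 0.271 and 1.36 CPM, and in fibroblasts 12.4, 41.5 and 4.40 CPM against 2.36, 5.66 and 0.686 CPM. Other plates reached or passed some of these levels, with 33.6 CPM of Slc26a2 in Acta2GFP pericytes and 5.82 CPM of Pde6a in fibroblasts of the second C57BL6 plate. The extent of the artificial chromosome is not given in the sources used here.

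A gene was called when the log2 ratio of summed CPM, each with 1 CPM added, was 2 or more in size and at least 30% of the cells of the higher side held a count. Of 9078 genes, 77 were called higher in PdgfrbGFP (0.848%) and 211 lower (2.32%). Since PdgfrbGFP cells show a gene less often at a similar summed level, the requirement on cells is harder to meet for higher genes. With no requirement on cells, 9.44% were higher and 11.3% lower. The called genes were mostly thinly counted: among those called lower, the median gene was at 10.8 CPM in PdgfrbGFP and 81.7 CPM in C57BL6 and reached 10 counts in 15.2% of C57BL6 cells. The shares within 2-fold given above rest on 2325 genes with a mean of 100 CPM or more and 82 genes with 1000 CPM or more.

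**Figure D3:**
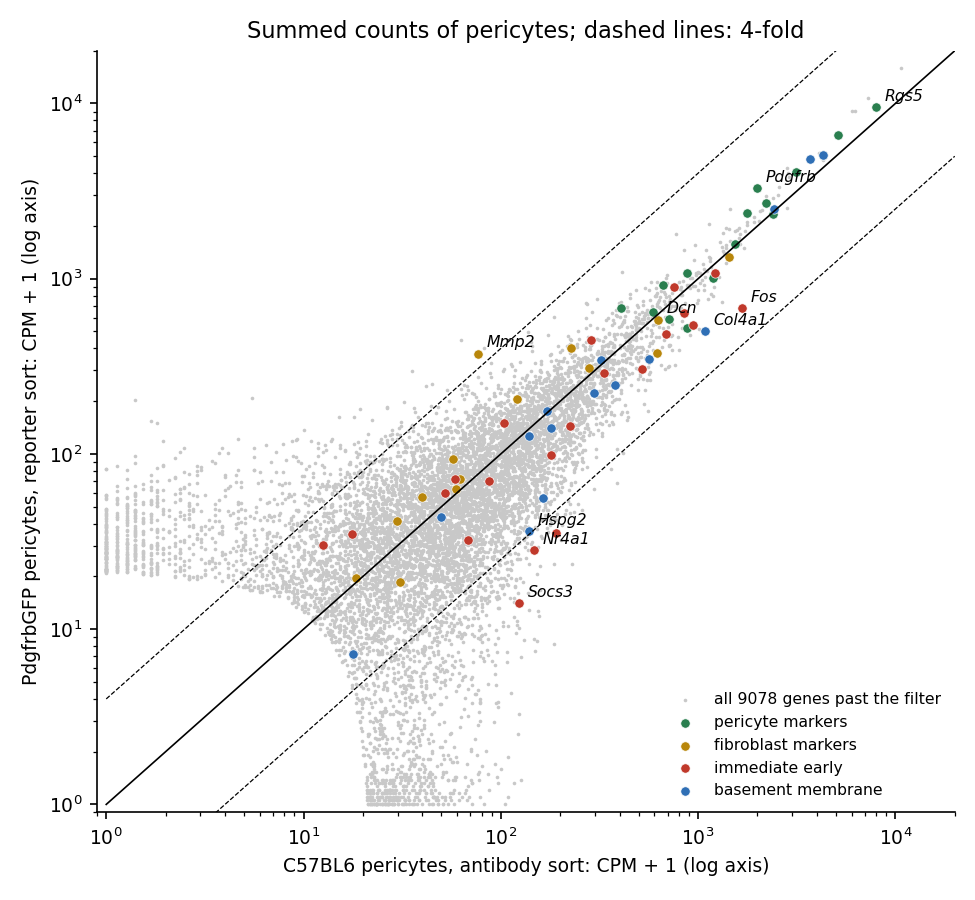
Summed CPM + 1 of each of 9078 genes in C57BL6 pericytes (x axis, log scale) and PdgfrbGFP pericytes (y axis, log scale), with 4 gene lists in colour, the line of equality and dashed lines at 4-fold. Abundant genes such as Rgs5 lie along the line, Fos and Col4a1 lie below it, and the widest scatter is at low CPM.

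The same measure was taken in fibroblasts, between these plates and between the 2 C57BL6 plates, and the C57BL6 fibroblasts with the pericytes enter both. Fibroblasts of clusters 2, 4 and 5 gave 4 genes higher (0.042% of 9533) and 37 lower (0.388%) on the PdgfrbGFP plate than on the C57BL6 plate, from 207 and 221 cells, with 86.1% of genes within 2-fold. The 2 C57BL6 plates gave 12 higher (0.124% of 9711) and 6 lower (0.0618%), from 221 and 213 cells, with 87.2% within 2-fold. Cluster 3 fibroblasts of the 2 C57BL6 plates, with 55 and 35 cells nearer in number to the pericytes, gave 430 higher (4.66% of 9221) and 47 lower (0.51%), and 57.7% of genes were within 2-fold. These cells had a median of 4194 and 2744 genes. Cluster 3, added after the values were seen, thus gave more calls between the 2 C57BL6 plates than the pericyte comparison gave. Clusters 2, 4 and 5 of these plates gave fewer. In cluster 3 and in the pericytes most calls were higher on the plate with more genes per cell. The labels do not say if both C57BL6 plates were stained with the same antibody.

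Of the 77 genes called higher in PdgfrbGFP pericytes, 9 were 2-fold higher in fibroblasts of the same plates too, beside 4.1% of all genes tested. Of the 211 called lower, 37 were 2-fold lower in fibroblasts, beside 10.7% of all. No called gene was 4-fold apart the opposite way in fibroblasts. The fibroblasts had a level above that of the pericytes on the higher side for 30 of 77 and 77 of 211 genes.

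Among called genes, most of the largest ratios in favour of PdgfrbGFP belonged to genes with their counts concentrated in few cells. Genes that too few cells held to be called reached ratios as large, such as Ppargc1b with a log2 ratio of -6.62. Angptl4, an inhibitor of lipoprotein lipase, led: 11.8% of PdgfrbGFP cells (6.58 to 19%) held 100 CPM or more and the highest held 5071, whereas none of 33 C57BL6 cells did (0 to 10.6%) and the highest held 9.88. Its summed level had a Poisson interval of 196.6 to 209.6 CPM in PdgfrbGFP and of 0.0839 to 1.19 CPM in C57BL6, where it had 3 counts in all. The log2 ratio was 7.18 with 1 CPM added, and the counting interval of the ratio without it was 7.41 to 11.24. Angptl4 was at 27.8 CPM in Cspg4dsRED and 408 CPM in Acta2GFP pericytes. In fibroblasts of clusters 2, 4 and 5 it was at 349.6, 95.9 and 543.6 CPM on the PdgfrbGFP plate, 31.6, 26 and 73.7 CPM on the C57BL6 plate and 189.1, 66.9 and 77.7 CPM on the second C57BL6 plate. Hilpda, a lipid droplet protein, followed with 152.6 and 0.678 CPM, and 3 cells held 40.1% of its counts. The other 8 of the 10 largest ratios among called genes were Rnpep, C530043K16Rik, Atad1, Rab3d, Rogdi, Pgf, Odc1 and Gab2, at 44.4 to 206 CPM in PdgfrbGFP and 0 to 4.47 CPM in C57BL6. In 6 of these 8, 3 PdgfrbGFP cells held 72.2 to 93.3% of the counts, and for Rogdi and Atad1 they held 69.1% and 32.9%. Pgf encodes placental growth factor and Odc1 the first enzyme of polyamine synthesis.

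Among called genes, the 10 largest ratios in favour of C57BL6 were Wbp1l, P3h1, Zfp598, Arrb1, Slc7a6, Sdf2l1, Eif2d, Trmt10a, Mxi1 and Uso1. They were at 41.9 to 122.3 CPM in C57BL6 and 0 to 2.27 CPM in PdgfrbGFP, and 3 of the 33 C57BL6 cells held 71.7 to 99.1% of their counts. Arrb1 encodes a β-arrestin, P3h1 a collagen prolyl hydroxylase and Sdf2l1 a chaperone component of the endoplasmic reticulum.

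A stricter look, chosen after the values were seen, asked for 10 or more counts in 30% of the cells of the higher side. Only 2 genes were then higher in PdgfrbGFP (0.022%) and 14 lower (0.154%). These counts were not thinned. The median cell had 10 counts in 762 genes in PdgfrbGFP and in 1557 in C57BL6, so the rule was harder to meet for higher genes. The higher ones were Sf3b1, a splicing factor subunit, with 445 and 61.7 CPM, and Mmp2, a gelatinase abundant in fibroblasts, with 373 and 76.1 CPM. Sf3b1 was also higher in fibroblasts of the PdgfrbGFP plate, at 311.5 against 149.9 CPM, and the second C57BL6 plate had 308.8 CPM. Mmp2 differed in few cells: the median cell held 47.6 CPM in PdgfrbGFP and 40.9 CPM in C57BL6, and 21% of PdgfrbGFP cells (14.1 to 29.4%) against 4 of 33 C57BL6 cells (12.1%, 3.4 to 28.2%) held 100 CPM or more. Without cells above 4000 CPM of the fibroblast list its log2 ratio was -0.98 in place of 2.28, but Mmp2 is itself on that list, so the limit removes cells that hold much of it.

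The 14 genes lower in PdgfrbGFP were Pacsin3, Golt1b, Selenos, Nr4a1, Plekhg3, Cyth2, Sept9, Rock1, Sfpq, Pcdhgb1, Sh2b3, Numa1, Ets1 and Tmem94. Rock1, a kinase that promotes contraction of the actin cytoskeleton, was at 61.9 and 296 CPM, and its median cell held 0 and 25.2 CPM. Ets1, a transcription factor of vascular cells, was at 44.6 and 192.6 CPM, against 326 and 216 CPM in the other reporter strains. Sh2b3, an adaptor that dampens cytokine receptors, was at 80.6 and 360 CPM. In 36.4% of C57BL6 cells (20.4 to 54.9%) and 6.72% of PdgfrbGFP cells (2.95 to 12.8%) Ets1 reached 10 counts. The rule asked for a filled C57BL6 side, so the higher share there was fixed by the choice of genes. Only Pacsin3, Golt1b and Selenos stayed past the limit of 2 under all settings. Each of the others fell short of it under at least 1, with Pcdhgb1 at -1.36 and Numa1 at -1.59 at their smallest. Nr4a1 was at -1.40 without cells above 5000 CPM of the smooth muscle list and -1.81 without its highest cells. Sh2b3 was at -1.62 without the former, Rock1 at -1.79 after thinning, and Ets1 at -1.74 to -1.98 under 7 settings, TMM scaling among them.

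Immediate early genes, which are transcribed within minutes of stress or tissue dissociation, included 3 genes called lower and none called higher among 21 past the filter, beside 2.32% and 0.848% of all genes. The median log2 ratio was -0.42, beside -0.10 for all genes, and 14 of 21 were below 0, beside 53.7% of all genes. Fos, a subunit of the AP-1 factor, ran from 30.5 to 10300 CPM with quartiles of 92.8 and 221 in PdgfrbGFP and from 49.3 to 7332 with quartiles of 204.5 and 2249 in C57BL6. Cells of both plates spread over the same range, but 13.4% of PdgfrbGFP cells (7.88 to 20.9%) and 12 of 33 C57BL6 cells (36.4%, 20.4 to 54.9%) held 1000 CPM or more. Its summed level was 681 and 1675 CPM (log2 ratio -1.30, counting interval -1.33 to -1.26).

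Nr4a1, a nuclear receptor induced by many stimuli, had a median of 15.9 CPM per cell in PdgfrbGFP, with a range of 0 to 398, and of 38.2 CPM in C57BL6, with a range of 4.71 to 1446. Its summed level was 27.3 and 146.3 CPM. In fibroblasts of clusters 2, 4 and 5, Nr4a1 was at 302.7, 961.5 and 1089 CPM on the PdgfrbGFP plate, at 918.4, 1409 and 2635 CPM on the C57BL6 plate and at 439.2, 970.5 and 1051 CPM on the second C57BL6 plate. The C57BL6 plate with the pericytes was thus the highest in each of the 3 clusters. Socs3, an inhibitor of cytokine signalling, was at 13.1 and 122.8 CPM in pericytes, and Atf3, a stress-induced transcription factor, at 34.3 and 189 CPM. For both, the median cells were closer than the sums, at 7.88 and 18.2 CPM for Socs3 and at 9.84 and 11.9 CPM for Atf3, and 4 and 5 of 33 C57BL6 cells, against 0.84 and 1.68% of PdgfrbGFP cells, held 100 CPM or more. Without cells above 4000 CPM of the fibroblast list the log2 ratio of Atf3 was -0.59 in place of -2.43 and that of Socs3 -1.53 in place of -3.13. That limit left 66 PdgfrbGFP and 21 C57BL6 cells, and the median cell held 3679 and 3498 CPM of the list. Whether fibroblast genes or the loss of a few cells moved these ratios was not tested.

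The list did not move as 1 group. Egr1 was at 1076 and 1216 CPM, and Dusp1, a phosphatase of stress kinases, at 892 and 752 CPM. Jun was at 444 and 285 CPM, a log2 ratio of 0.64 that was -0.04 without cells above 1000 CPM of the endothelial list. That limit acts mainly on the fatty acid binding protein gene Fabp4 and left 76 PdgfrbGFP and 22 C57BL6 cells. In fibroblasts Jun was at 2131, 1651 and 2518 CPM on the PdgfrbGFP plate, 1204, 894.7 and 1590 CPM on the C57BL6 plate and 2380, 2049 and 2887 CPM on the second C57BL6 plate, which for this gene was the highest. Klf6 was also lowest on the C57BL6 plate with the pericytes in each cluster, but highest on the PdgfrbGFP plate, with 611.6, 554.5 and 601.8 CPM, then 192.7, 177.4 and 224 CPM, then 527.9, 526.8 and 388.2 CPM. The fibroblasts of the C57BL6 plate enter both of these plate comparisons.

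**Figure D4:**
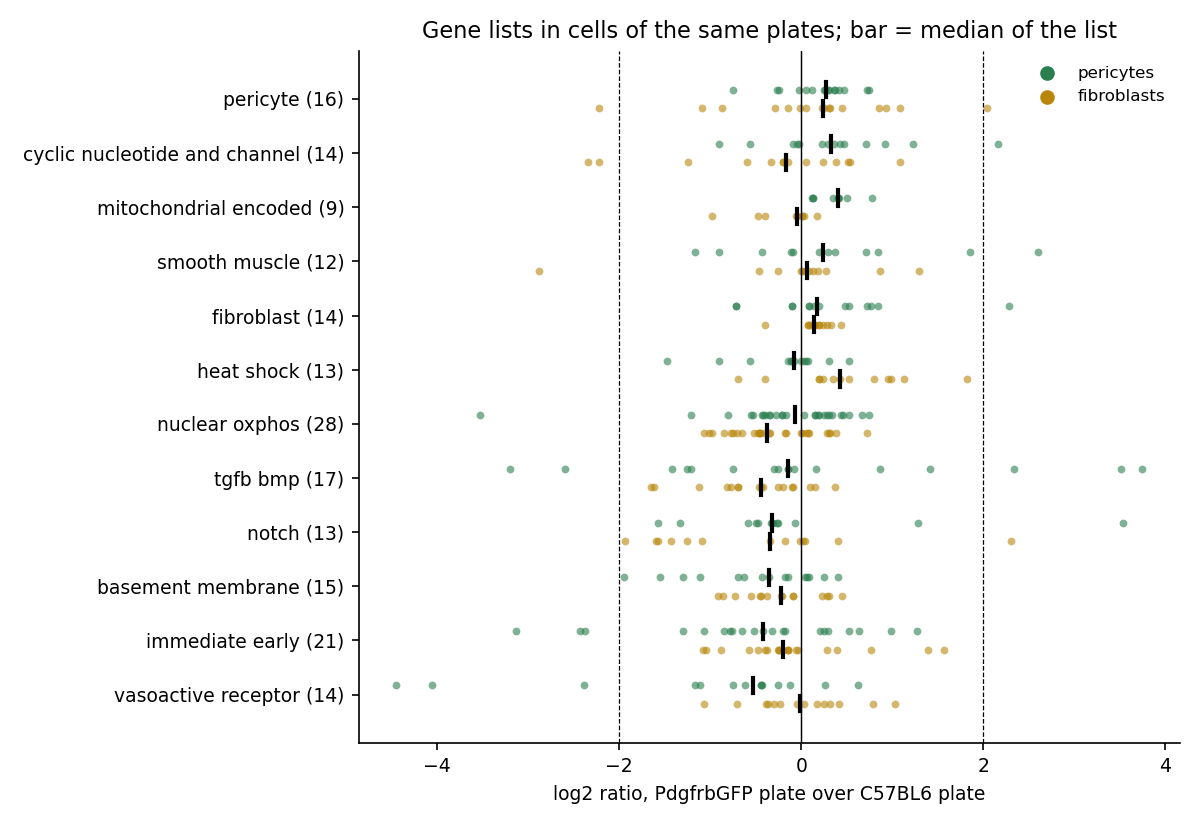
Log2 ratio of the PdgfrbGFP plate over the C57BL6 plate (x axis) for the genes of 12 lists that passed the filter, in pericytes (green) and in fibroblasts of clusters 2, 4 and 5 (ochre), with bars at the list medians and dashed lines at 4-fold. The number of genes is in brackets; the pericyte list has a median of 0.27 and no gene past 4-fold, and the vasoactive receptor list has the lowest pericyte median of the lists drawn, -0.53.

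Of 15 basement membrane genes past the filter none was called, beside 0.848% of all genes called higher and 2.32% lower. Of these 15, 4 were 2-fold lower in PdgfrbGFP, a share close to the 24.6% of all genes. None was 2-fold higher, beside 18.5% of all genes. The median was -0.35, beside -0.10. Col4a1, a chain of type IV collagen, differed between typical cells. It ran from 0 to 4582 CPM with a median of 14.2 in PdgfrbGFP and from 0 to 4821 CPM with a median of 1155 in C57BL6. The summed levels were 501 CPM (491 to 511) and 1083 CPM (1060 to 1107). At least 100 CPM was held by 29.4% of PdgfrbGFP pericytes (21.4 to 38.5%), 28 of 33 from C57BL6 (84.8%, 68.1 to 94.9%), 24 of 29 from Cspg4dsRED (82.8%, 64.2 to 94.2%) and 10 of 15 from Acta2GFP (66.7%, 38.4 to 88.2%). PdgfrbGFP was thus the low plate of the 4 for this gene. At 50000 counts per cell, 28% of PdgfrbGFP and 75.8% of C57BL6 cells reached 10 counts. The median shares were 28.8% and 54.5% for the genes of 300 to 1000 CPM with similar sums described above. Col4a2, the partner chain, was at 349 and 563 CPM, Hspg2, the perlecan core protein, at 35.3 and 138.7 CPM, and Lama4, a laminin chain of vessels, at 55.3 and 163.4 CPM. Sparc, a collagen-binding matrix protein, did not share this pattern, with 4836 and 3676 CPM and medians of 5027 and 3755 CPM per cell.

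Receptors for vasoactive signals were lower in PdgfrbGFP for 12 of the 14 past the filter, beside 53.7% of all genes, with a median of -0.53 beside -0.10. Of these, 2, Pth1r and Npr1, were called lower, beside 2.32% of all genes, and in Pth1r 3 cells held 63.6% of the C57BL6 counts and in Npr1 95.9%. The log2 ratio of Pth1r, -2.39, was -1.38 without cells above 1000 CPM of the endothelial list, the limit that acts mainly on Fabp4. Ednrb, the endothelin B receptor, had a log2 ratio of -1.17 (counting interval -1.25 to -1.1), and reached 10 counts in 11.8% of PdgfrbGFP cells (6.58 to 19%) and 48.5% of C57BL6 cells (30.8 to 66.5%). Pth1r, the parathyroid hormone receptor, was at 28.3 and 153.1 CPM, and at 10.8 CPM in Cspg4dsRED pericytes. Npr1, a receptor for natriuretic peptides made by the heart, was at 1.03 and 32.8 CPM. P2ry14, a receptor for UDP-sugars, was at 890 and 1209 CPM. For the list of cyclic nucleotide signalling and channels the median was 0.33 and no gene of 14 was called. Gucy1a1 and Gucy1b1, the subunits of the nitric oxide receptor, were at 1074 and 879 CPM and at 922 and 663 CPM.

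Notch genes had a median of -0.32, with 11 of 13 below 0, beside -0.10 and 53.7% for all genes, and none called. In fibroblasts of the same plates their median was -0.34. Notch2 had a log2 ratio of -1.57, with 10 counts in 8.4% of PdgfrbGFP and 48.5% of C57BL6 cells, and was at 61.9 and 189.3 CPM in the fibroblasts. Heyl, a transcriptional target of Notch, was at 822 and 1161 CPM. In the TGFβ and BMP list, 17 genes passed the filter, with a median of -0.15 beside -0.10 for all genes, and 1 was called in each direction, beside 0.848% higher and 2.32% lower of all genes. Bambi, a decoy receptor, was called higher, at 32 and 1.898 CPM, and Ltbp1, which anchors latent TGFβ in the matrix, was called lower, at 2.86 and 34.6 CPM. Ltbp1 was also lower in fibroblasts, at 128.7 and 406.8 CPM, with 221 CPM on the second C57BL6 plate. In pericytes its log2 ratio was -3.20, and -1.06 without the highest cell of each side.

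Markers of other cell types were set beside these results. Summed over 15 smooth muscle genes, single cells held 7.32 to 35290 CPM in PdgfrbGFP with a median of 3153, and 158.2 to 10220 CPM in C57BL6 with a median of 3750. The limit of 5000 CPM was passed by 35 PdgfrbGFP and 6 C57BL6 cells. Acta2, smooth muscle α-actin, had a median of 29.7 CPM per cell in PdgfrbGFP, with a range of 0 to 11680, and of 0 CPM in C57BL6, with a range of 0 to 1992. In PdgfrbGFP 10.1% of cells (5.32 to 17%) and in C57BL6 2 of 33 (6.06%, 0.743 to 20.2%) held 1000 CPM or more, and the intervals overlapped. The summed level was 494 and 136.1 CPM, with a log2 ratio of 1.85. This ratio became -0.51 without cells above 1000 CPM of the endothelial list, a limit that acts mainly on Fabp4 and left 76 and 22 cells. It was 6.49 without cells above 4000 CPM of the fibroblast list, which left 66 and 21 cells. Cnn1 and Actg2 had no count on either side, and Myh11, smooth muscle myosin, was at 36.3 and 5.15 CPM with 10 counts in 3.36% and 3.03% of cells. Of 15 smooth muscle genes, 12 passed the filter and none was called, beside 0.848% of all genes called higher and 2.32% lower. In Acta2GFP pericytes Acta2 was at 2340 CPM and Myh11 at 664 CPM, while Kcnj8 was at 665 CPM, so these 15 cells differ from the other 3 plates in the markers of the cluster.

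Fibroblast genes were counted in pericytes of both plates. Summed over 15 genes, single cells held 1064 to 11510 CPM in PdgfrbGFP and 1334 to 8004 CPM in C57BL6, with medians of 3679 and 3498. Dcn, a matrix proteoglycan, was at 583 and 627 CPM, 9.03% and 10.7% of its level in fibroblasts of the same plate, and its lowest cells held 153.2 and 240.4 CPM. The share of the fibroblast level varied widely over the list. It was highest for Tcf21, a fibroblast transcription factor, at 45.1% and 31.1%, and reached 27% and 33.8% for Col3a1, 16.4% and 11.5% for Col1a1, 16.9% and 16% for Col1a2 and 13.4% and 16.4% for Gsn. Lum was at 2.79% and 2.67% of the fibroblast level, Fbln1 at 2.55% and 2.59% and Pdgfra, a defining fibroblast receptor, at 1.02% and 1.48%. Of the 14 genes of this list past the filter, 1, Mmp2, was called higher and none lower, beside 0.848% and 2.32% of all genes.

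Defining endothelial genes were at or near 0. Pecam1, which encodes CD31, was at 6.96 and 2.71 CPM and reached 10 counts in no cell, and Cdh5 was at 0.0539 and 0.271 CPM. Flt1, Emcn and Egfl7 had 13.6 to 17.4 CPM in PdgfrbGFP and 0 to 0.542 CPM in C57BL6, with at least 10 counts in 0.84 to 1.68% of PdgfrbGFP cells. Fabp4, a fatty acid binding protein of endothelium, was an exception with 762 and 723 CPM, and medians of 310 and 551 CPM per cell. The whole endothelial list summed to 832.3 and 727.9 CPM, so a limit on it acts mainly on Fabp4. Among immune genes Ptprc, Cd68, C1qa and Tyrobp had no count on either side. Lyz2, a lysozyme of macrophages, was the only immune gene past the filter, at 0.378 and 27.2 CPM, and reached 10 counts in 1 C57BL6 cell, which held 943 CPM. The summed immune list was 11.6 and 35.4 CPM, and its highest PdgfrbGFP cell held 1335 CPM. In PdgfrbGFP nearly all of it, 10.6 CPM, was Csf1r, the neighbour of Pdgfrb described above. The part of these genes in the differences above was not tested.

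The other reporter plates gave 2 more sets of cluster 8 cells for the called genes. Those of Acta2GFP held 11820 CPM of the fibroblast list and 17790 CPM of the pericyte list, against 2254 and 35740 CPM in Cspg4dsRED. Among the 77 genes called higher in PdgfrbGFP, C57BL6 lay 4-fold below all 3 reporter plates for 27 and PdgfrbGFP 4-fold above all 3 others for 8. Among the 211 called lower, PdgfrbGFP lay 4-fold below all others for 54 and C57BL6 4-fold above all others for 14. Since only genes already called between the pair were counted, these numbers do not show which plate stands apart over all genes. The widest gaps of C57BL6 below the others were for Rnpep, Rab3d, Angptl4, Snap47 and Gab2, and above them for Nop14, Zkscan17, 2510039O18Rik, Selenon and Arhgap31. Snap47, a SNARE protein of membrane fusion, was at 3.12 CPM in C57BL6 and 82.2 to 100.3 CPM in the others. Nop14, a factor of ribosome assembly, was at 185.5 CPM in C57BL6 and 0.45 to 7.77 CPM in the others. PdgfrbGFP stood lowest for Ubap1, Arfgap3, Hdgfl2, Pum3 and Tmod2, and highest for Pgf, C530043K16Rik, Hilpda, Gm42974 and Zfp386. Hdgfl2, a reader of histone methylation, was at 2.80 CPM in PdgfrbGFP and 70.4 to 105.4 CPM in the others, and reached 10 counts in 0.84% of PdgfrbGFP and 12.1% of C57BL6 cells.

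Nuclear-encoded respiratory chain genes had no common direction, with a median of -0.07 over 28 genes, whose sign was the other with TMM scaling. Of them 26 lay within 2-fold, beside 56.9% of all genes and 84.3% of those with a mean of 100 CPM or more. The other 2 were Ndufa4, called lower with 2.32 and 37.4 CPM, and Ndufa1, at 55.9 and 130.6 CPM. Of all genes 2.32% were called lower. Mitochondrially encoded genes past the filter were slightly higher in PdgfrbGFP, 9 of 9 with log2 ratios of 0.12 to 0.78, beside 4202 of all 9078 genes above 0. The ratio of mt-Co3, which did not pass, was -0.01. The mitochondrial share of counts had medians of 3.28% and 2.16%. In fibroblasts of the same plates the median of the 9 genes past the filter was -0.05.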

How the data were processed

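The pericytes compared were 119 PdgfrbGFP and 33 C57BL6 cells, 152 in all, each a Smart-seq2 library without molecular identifiers. As the methods describe it, the authors used Trim Galore for trimming, TopHat for mapping to GRCm38 and featureCounts for counting per gene. They left out shallow cells, cells with much spike-in or mitochondrial RNA those with neither Pdgfra nor Pdgfrb and those with endothelial or immune signatures, and clustered the rest with pagoda2. Against doublets they gated the sort and left out cells with very many genes. A samtools step against doublets is also named, without saying if it means duplicate reads. The annotation release and strand setting are not given in the sources used here. The deposited values are raw read counts of 46609 features, of which 92 are ERCC spike-ins that took 4.04% of the counts of the 152 cells and were kept out of totals. Here no further cell was left out, no doublet caller was run, and no columns were identical.

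Counts were summed over the cells of a side and scaled to CPM. A gene was kept at a mean of 10 CPM, and log2 ratios used 1 CPM added. Called genes were 4-fold apart with a count in 30% of the cells of the higher side. Fibroblast levels are the mean of the CPM of clusters 2, 4 and 5. Coordinates used for neighbours came from GENCODE M21 (GRCm38). Named genes were those of 26 lists, the 10 largest ratios per direction among called genes, the same among genes that fibroblasts did not hold at a higher level, up to 5 per direction apart from the 3 other plates, and neighbours of Pdgfrb. The members and lists were chosen with earlier results of these data known. Intervals are exact Poisson intervals for sums and Clopper-Pearson intervals for shares. The functions were tested on simulated data. These had no spread between cells beyond depth and counting error, so they give no rate of false calls for the real cells. Alternatives covered scaling (edgeR 4.0.16 TMM), filters, pseudocounts, folds, thinning and left-out cells. Python 3.11.15, numpy, scipy and matplotlib were used.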

Additional observations from a re-analysis of the deposited data

How the results depend on the processing

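The number of called genes depended on the settings. Against 0.848% of genes tested called higher and 2.32% lower, the shares of the genes each setting tested were 0.188% and 0.763% after thinning to 50000 counts, 0.952% and 2.22% at a mean of 50 CPM or more (42 and 98 genes of 4411), 3.71% and 8.33% at 2-fold, 9.44% and 11.3% with no requirement on cells, 0.022% and 0.154% with 10 counts in 30% of cells, 1.72% and 3.89% without cells above 1000 CPM of the endothelial list, and 1.81% and 3.97% without cells above 4000 CPM of the fibroblast list. The limit on the endothelial list left 76 PdgfrbGFP and 22 C57BL6 cells, and that on the fibroblast list 66 and 21. Without the highest cell of each gene the shares were 2.47% and 4.12% of 6751 genes. Of the 17 and 69 calls after thinning, 13 and 47 were also called unthinned. The planned limit of 1000 CPM on the fibroblast list left no cell and gave no value, so 4000 CPM was added after seeing the data, as were 10 counts, a minimum of 100000 counts per cell and cluster 3. TMM moved the median log2 ratio of these genes from -0.10 to 0.04 and gave 1.05% and 1.98%. Calls were more often lower than higher under every setting run. With no requirement on cells 45.4% of calls were higher, against 26.7% in the main setting, so the balance of calls depends on that rule. The ratio of median genes per cell, C57BL6 over PdgfrbGFP, was 1.32 at 50000 counts and 1.19 at 100000 counts, a depth that 27 PdgfrbGFP and 2 C57BL6 cells did not reach. Mmp2 went from 2.28 to -0.98 without cells above 4000 CPM of the fibroblast list, which it is part of, so this setting is no independent check of it. Over all settings, the log2 ratio of Pdgfrb stayed between 0.64 and 0.87, that of Rgs5 between 0.17 and 0.41, that of Fos between -1.41 and -1.07 and that of Col4a1 between -1.40 and -0.96, whereas Atf3 ran from -3.58 to -0.59. The cause of these shifts was not tested. No paired analysis was possible because each side is 1 plate and the replicate numbers only name cells. The pericytes of C57BL6 number 33, so a gene carried by few cells rests on a handful of wells.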

Other observations

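Heat shock genes, which respond to dissociation, had a median log2 ratio of -0.08 in pericytes over 13 genes, beside -0.10 for all genes. Its sign was the other under TMM scaling, and it was 0.43 in fibroblasts of the same plates. None was called, beside 0.848% of all genes called higher and 2.32% lower. Hspa1a was at 519 and 550 CPM in pericytes of PdgfrbGFP and C57BL6, and at 718 and 328 CPM in their fibroblasts, with 413 CPM on the second C57BL6 plate. Interferon and antigen presentation genes had a median of 0.02 over 15 genes. B2m, the light chain of class I molecules, was at 1220 and 1056 CPM. Ifit1, an interferon-induced gene, was at 84.2 and 0.136 CPM, with 10 counts in 3.36% of PdgfrbGFP cells and none of C57BL6.

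Clock genes had a median of 0.01 over 15 genes with none called. Dbp, an output gene of the clock, was at 380 and 373 CPM in PdgfrbGFP and C57BL6, but at 1.2 CPM in Cspg4dsRED and 55.3 CPM in Acta2GFP pericytes. Nr1d1, a clock repressor, was at 1074, 982, 509 and 1001 CPM in the same order. Glucocorticoid-responsive genes had a median of 0.46 over 11 genes, and Tsc22d3 was at 422 and 224 CPM in pericytes and at 587 and 248 CPM in fibroblasts. Ccl11, the chemokine eotaxin, was called lower with 7.28 and 92.7 CPM, but its log2 ratio of -3.50 was -1.02 without cells above 4000 CPM of the fibroblast list, -1.48 without those above 5000 CPM of the smooth muscle list and -1.59 without its highest cells. Of the cardiac muscle list, 8 genes passed the filter, 6 of them below 0, beside 53.7% of all genes, and 4 2-fold lower in PdgfrbGFP, beside 24.6%, with a median of -0.97 in pericytes and -1.06 in fibroblasts of the same plates. Ttn was called lower, at 6.04 and 27.5 CPM, with a log2 ratio of -2.02 that was -0.44 without cells above 4000 CPM of the fibroblast list. Of 81 ribosomal protein genes 77 lay within 2-fold, beside 56.9% of all genes and 84.3% of those with a mean of 100 CPM or more, and 55 were above 0, beside 4202 of all 9078, with a median of 0.21 in pericytes and -0.03 in fibroblasts. Of 9 hypoxia and glycolysis genes past the filter, with a median of 0.28 beside -0.10 for all genes, Angptl4 was called higher and Adm, which encodes the vasodilator adrenomedullin, lower at 2.80 and 21 CPM, with a log2 ratio of -2.53 that was -0.71 without its highest cells. Of all genes 0.848% were called higher and 2.32% lower. Of 7 iron and copper genes none was called, with a median of -0.05.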
